A study of Mus musculus with 6 samples.

Results

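The 10 genes described here encode the sensors, the adaptor, the caspases, the pore proteins and 1 cytokine of the inflammasome and of the lytic cell deaths linked to it. They are Nlrp3, Nlrp1a, Aim2, Pycard, Casp1, Casp4, Casp8, Gsdmd, Mlkl and Il18. They were chosen by symbol for their known roles, out of 35049 genes in the laser-captured samples and 37991 genes in the punched samples. All 10 were listed in both kinds of file. An inflammasome is a protein complex in which a sensor meets a microbial product or a sign of cell damage, gathers the adaptor ASC and activates caspase-1, which matures the cytokines IL-1β and IL-18 and cleaves gasdermin D into a membrane pore. The loss of the membrane through that pore is called pyroptosis, and necroptosis is a related lytic death in which MLKL opens the membrane. In the brain these genes are known mainly from microglia and from infiltrating myeloid cells.

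RNA was sequenced from mouse substantia nigra pars compacta (SNpc), the midbrain region whose dopaminergic neurons are lost in Parkinson's disease, in a study of the homeoprotein Engrailed. There were 6 groups of 1 library each. Captured libraries held neurons stained for tyrosine hydroxylase and cut out by laser. They came from wild-type mice at 6 weeks, from mice with 1 copy of En1 (En1+/-) at 6 weeks, and from both sides of wild-type mice at 8 weeks whose SNpc on 1 side (ipsi) had received En2 protein from an osmotic pump for 7 days, with the opposite side (contra) as the control. Punched libraries held whole SNpc tissue, taken as 1 mm punches of frozen slices 2 mm thick from wild-type mice at 8 weeks. Both groups of punches had first been given 6-hydroxydopamine (6-OHDA), which enters and damages catecholamine neurons. After 30 min, 1 group received vehicle (NaCl 0.9%) and the other received 2 µl with 300 ng of En2 (4 µM) and 3 µg of colominic acid. The En2 of the injections was a recombinant protein from bacteria. The vehicle is labelled as saline alone, so En2 and colominic acid differ together between the punched groups. No punched group without 6-OHDA is analysed here, so the effect of the toxin itself cannot be read from these libraries. The sources used here do not give the number of animals in each library. For the infusion the labels name En2, whereas the table names of the infusion pair say En1.

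Each group is 1 library, so differences below have no replicate check, and every interval covers counting error only. Captured libraries held 16145262 to 21332308 reads over transcripts, of which 1510189 (wild type), 3272409 (En1+/-), 1908503 (contralateral) and 2308707 (infused) lay outside mitochondrial and ribosomal RNA genes. Punched libraries held 15927206 and 19044672 reads over genes. Genes that mark dopaminergic neurons summed to between 5989 and 7805 CPM in the captured libraries and to 290 and 403 CPM in the punched libraries (CPM is the usual depth-scaled count, here relative to the reads outside mitochondrial and ribosomal RNA genes). Oligodendrocyte markers summed to between 17543 and 25644 CPM in the captured libraries, so RNA of other cells came with the captured neurons. Homeostatic microglia markers summed to between 273 and 344 CPM there.

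Most members had more reads in the punched libraries than in the captured ones. The punched libraries also held more reads outside mitochondrial and ribosomal RNA genes, so read counts cannot order captured and punched levels. By the rule of size used throughout (at least 20 reads in 1 of the pair, a log2 ratio at or beyond 1 in size, and a 95% counting interval that leaves out 0), 5 of the 10 members were higher after 6-OHDA then En2 than after 6-OHDA then vehicle, and none was lower. These were Nlrp3, Casp1, Casp4, Gsdmd and Mlkl, and their ratios ran from 2.08-fold to 16.4-fold. Of all 15747 genes with enough reads in this pair, 4.66% were higher by the same rule and 1.23% were lower. Casp1 and Mlkl reached 20 reads only after 6-OHDA then En2, so by the minimum itself they had to be higher. The median log2 ratio over all 10 members was 0.76, beside 0.01 over the genes with reads in this pair. Bulk libraries cannot tell fewer cells of a type from less RNA per cell, here or in any result below.

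**Figure D1:**
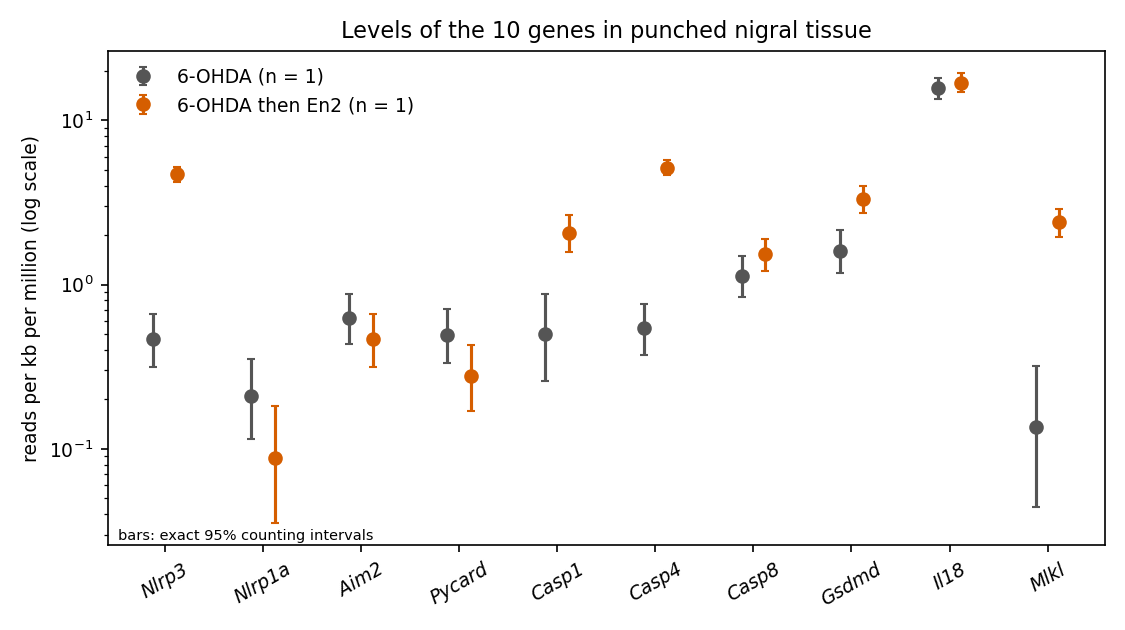
Level of each of the 10 members in the 2 punched libraries, in RPKM (CPM divided by the length in kilobases; log axis), with exact 95% Poisson intervals of 1 library each. Nlrp3, Casp4 and Mlkl lie between 0.136 and 0.542 after 6-OHDA then vehicle and between 2.39 and 5.14 after 6-OHDA then En2, whereas Il18 lies at 15.7 and 17.0.

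Among the sensors, Nlrp3 carried the difference. NLRP3 is a cytosolic sensor of potassium efflux, lysosomal damage and other stress signals, and its gene is known to be induced by a priming signal. Nlrp3 (ENSMUSG00000032691, chr11:59541568-59566956 on GRCm38, plus strand) had 30 reads after 6-OHDA then vehicle and 362 reads after 6-OHDA then En2. The log2 ratio was 3.34 (95% counting interval 2.82 to 3.95), which is 10.1-fold. Aim2, a sensor of cytosolic double-stranded DNA, had 35 and 31 reads, for a log2 ratio of -0.40 (-1.15 to 0.33). Nlrp1a had 14 and 7 reads, which is under the minimum, with a log2 ratio of -1.17 (-2.78 to 0.17). Nlrp1a belongs to a small group of near copies on chromosome 11, so its few reads could be shared with Nlrp1b and are uncertain.

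The adaptor did not follow Nlrp3. Pycard, which encodes ASC, had 30 reads after 6-OHDA then vehicle and 20 after 6-OHDA then En2, a log2 ratio of -0.80 (-1.71 to 0.05). It lies at chr7:127989708-127993867 on the minus strand, and a gene of unproven status on the opposite strand overlaps 12.8% of its exon length (485 bases). The sources used here do not say whether reads were counted by strand, so a part of these reads may belong to that gene.

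Both inflammatory caspases were higher after 6-OHDA then En2. Caspase-4 of the mouse, long called caspase-11, binds bacterial lipopolysaccharide in the cytosol and cleaves gasdermin D. Casp4 (ENSMUSG00000033538, chr9:5308828-5336783, plus strand) had 32 and 363 reads, for a log2 ratio of 3.25 (2.75 to 3.84) or 9.53-fold. Casp1, the protease that matures IL-1β and IL-18, had 12 and 59 reads, for a log2 ratio of 2.02 (1.15 to 3.10). Casp1 and Casp4 lie side by side on chromosome 9 and are related in sequence, and the counting intervals of their ratios overlap. Casp8, the initiator of receptor-driven apoptosis that also holds back necroptosis, had 50 and 81 reads, for a log2 ratio of 0.46 (-0.06 to 1.00), and did not pass the rule.

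Both pore genes were higher as well. Mlkl, the executioner of necroptosis, had 5 reads after 6-OHDA then vehicle and 105 after 6-OHDA then En2. Its log2 ratio of 4.04 (2.89 to 5.81), or 16.4-fold, was the highest among the 10 members. Gsdmd, the gene of gasdermin D, had 46 and 113 reads and lay just past the rule, with a log2 ratio of 1.06 (0.56 to 1.59). Il18 had the most reads of the members after 6-OHDA then vehicle, with 175, and 227 after 6-OHDA then En2, a log2 ratio of 0.14 (-0.15 to 0.43). The interval of Il18 includes 0, and both of its ends are nearer to 0 than the size the rule asks for.

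The authors' deposited table of this pair, made without replicates, listed adjusted p-values under 0.05 for 3 of the 10 members. In the authors' deposited table the fold change and adjusted p were 10.26 and 2.4e-10 for Nlrp3. They were 9.649 and 5.35e-10 for Casp4 and 17.86 and 0.000583 for Mlkl, in the authors' deposited table. Casp1 stood at 0.902 in the authors' deposited table and the other 6 members at 1. Of the 22834 genes in the authors' deposited table, 2.04% were higher and 0.171% lower at an adjusted p under 0.05.

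The sequences upstream of these 3 genes are shown because they are the members with the lowest adjusted p in the authors' deposited table. Each run gives the 250 bases before a RefSeq transcript start on GRCm38.p6, read 5′ to 3′ on the gene's own strand, and capitals mark matches to the NF-kappaB consensus on either strand. The windows are chr11:59541319-59541568 (plus strand) for Nlrp3, chr9:5308599-5308848 (plus strand) for Casp4 and chr8:111338206-111338455 (minus strand) for Mlkl.
Nlrp3: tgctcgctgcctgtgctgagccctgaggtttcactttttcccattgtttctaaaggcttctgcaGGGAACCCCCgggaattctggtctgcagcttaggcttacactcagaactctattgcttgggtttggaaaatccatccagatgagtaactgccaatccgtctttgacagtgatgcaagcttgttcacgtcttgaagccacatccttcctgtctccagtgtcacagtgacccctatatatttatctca
Casp4: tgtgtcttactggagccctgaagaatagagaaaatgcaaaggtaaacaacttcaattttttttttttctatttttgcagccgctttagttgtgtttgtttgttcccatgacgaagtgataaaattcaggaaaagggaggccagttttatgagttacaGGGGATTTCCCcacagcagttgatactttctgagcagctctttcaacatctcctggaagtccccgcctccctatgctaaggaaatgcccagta
Mlkl: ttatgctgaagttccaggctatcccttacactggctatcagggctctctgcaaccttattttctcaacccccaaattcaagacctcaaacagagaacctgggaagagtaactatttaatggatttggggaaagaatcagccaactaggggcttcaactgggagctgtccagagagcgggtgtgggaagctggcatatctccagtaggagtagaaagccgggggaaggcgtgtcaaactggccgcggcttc
In the Casp4 window 3 overlapping matches, on both strands, lie between 93 and 83 bases before the start. The second Casp4 window, whose start is a few bases further on, holds the same letters. In this Nlrp3 window 1 match lies on the minus strand, 186 to 177 bases before the start, and the second Nlrp3 window holds none. The Mlkl window holds none. The same consensus was found in 3.90% of 32851 RefSeq windows of this length. RefSeq windows were matched for 9 of the 10 members (11 windows in all), without Gsdmd. For Il18 the bases checked after the start stood in no annotated transcript of the gene, so its window is uncertain. The interferon-stimulated response element occurs in 2.98% of all windows and the gamma-activated site, TTCNNNGAA, in 7.02%, both strands read, and neither occurs in any member's window. A match of letters is not evidence of binding.

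Compared per length within a library, Il18 stood above the other 9 members in both punched libraries. Its level was 15.7 RPKM (CPM divided by the length in kilobases; 13.4 to 18.1) after 6-OHDA then vehicle and 17.0 RPKM (14.8 to 19.3) after 6-OHDA then En2. After 6-OHDA then vehicle the other 9 lay between 0.136 RPKM (Mlkl) and 1.61 RPKM (Gsdmd), and no neighbours in that order were apart beyond their counting intervals. After 6-OHDA then En2 the order was Il18, Casp4 (5.14 RPKM), Nlrp3 (4.69), Gsdmd (3.31), Mlkl (2.39), Casp1 (2.07), Casp8 (1.53), Aim2 (0.465), Pycard (0.276) and Nlrp1a (0.0882). In it Nlrp3 and Gsdmd were apart beyond their intervals, as were Casp8 and Aim2. Lengths came from GENCODE M21, which may differ from the annotation the authors counted with.

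**Figure D2:**
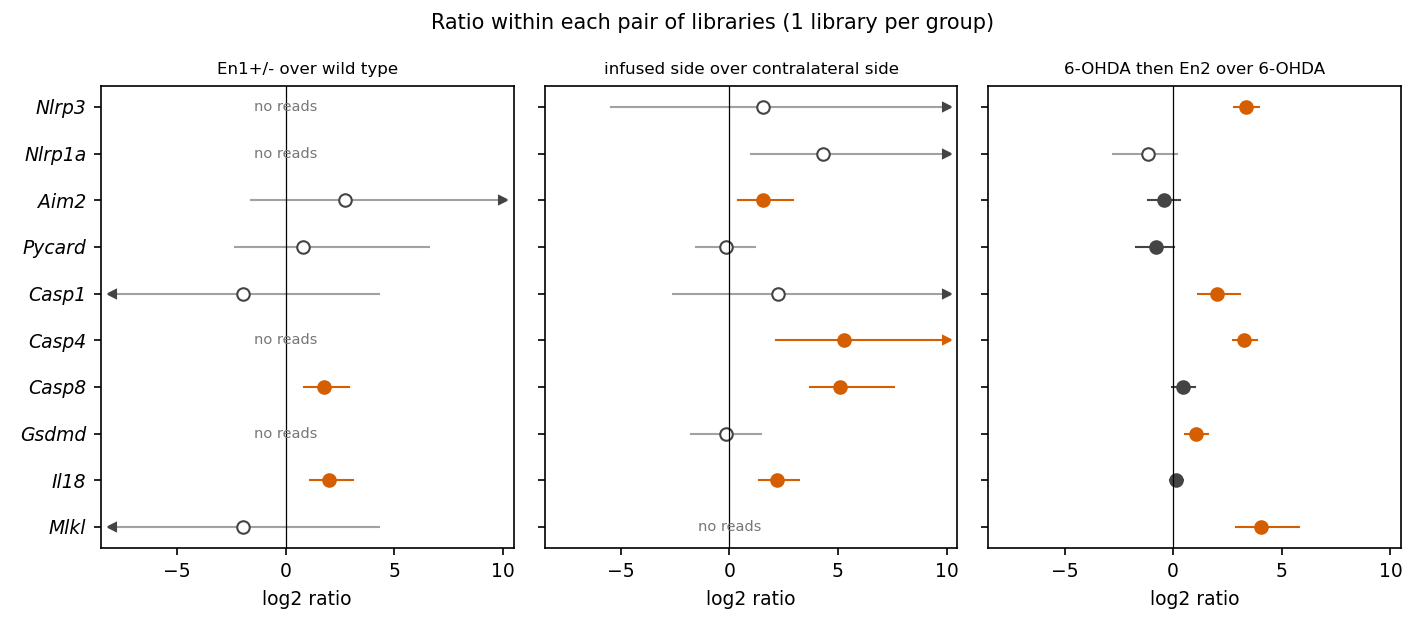
Log2 ratio of each member in the 3 pairs, with exact 95% counting intervals orange where higher by the rule of size, dark where not past it, open where both libraries had under 20 reads, and arrows where 0 reads in 1 library leave the interval without an end. Nlrp3 (3.34), Casp4 (3.25) and Mlkl (4.04) lie farthest right in the punched pair, and on the infused side Casp8 lies at 5.08 while the Casp4 point, from 0 reads, depends on the added 0.5.

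Other genes of these pathways were read from a list of 63, of which 51 had enough reads in the punched pair. Of these 51 genes, 23 were higher and 1 was lower by the rule of size, beside 4.66% and 1.23% of all genes with enough reads. Of the 23, 8 reached 20 reads only after 6-OHDA then En2, and the lower gene reached it only after 6-OHDA then vehicle. The median log2 ratio over the 60 with reads was 0.49. All but 1 of the 5 IL-1 family ligands passed the rule. Il1b, the cytokine that caspase-1 matures, had 23 and 2213 reads, for a log2 ratio of 6.33 (5.77 to 7.02). Il1a, an alarmin of the same family, was higher by 3.91 on the log2 scale, and Il1rn, the receptor antagonist, by 4.31. Il36g had 0 and 179 reads, at least 50.7-fold higher against a floor of 3 reads. Il33, an alarmin of glia, had a log2 ratio of 0.89 and did not pass.

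Among the receptors and decoys, 5 of 7 listed genes had enough reads and 3 were higher. Il18rap, a subunit of the IL-18 receptor, had a log2 ratio of 4.18. The decoy receptor Il1r2 had 2.79 and the IL-18 binding protein gene Il18bp 1.22. Upstream of the inflammasome, 5 of 12 were higher. They included Gbp5 (188 and 7341 reads, log2 ratio 5.05) and Gbp2 (143 and 4716 reads, 4.81), interferon-induced GTPases that act on bacterial membranes, and at the lower end Myd88 (1.78) and Nfkb1 (1.24). Of 14 other sensor genes 8 had enough reads, and of these 4 were higher and 1 was lower. Mefv, which encodes the sensor pyrin, had 2 and 113 reads, for a log2 ratio of 5.29 (3.70 to 8.65). Nlrp12 had 1 and 35 reads (4.37, 2.32 to 10.2), Ifi204 had a log2 ratio of 3.68 and Nlrc5, an activator of MHC class I genes, 2.77. Naip5, which recognises bacterial flagellin, was lower, with a log2 ratio of -1.16.

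Further caspases and death adaptors were higher in 4 of 9 cases, among them Casp12 (2.18), Cflar (1.26) and Ripk1 (1.14). Of the 8 inhibitors 2 were higher. These were Usp18 (5.22), which restrains interferon signalling, and Tnfaip3 (4.22), which restrains NF-kappaB. The nucleic acid sensor Zbp1, which can start necroptosis, had a log2 ratio of 4.61. Ripk3, the kinase that activates MLKL, had only 6 and 15 reads and stayed under the minimum. Of the 5 other pore and rupture genes only Gsdme and Ninj1 had enough reads, and neither passed the rule. The log2 ratios of Gsdme (-0.14) and of Ninj1 (0.42), which ruptures the membrane after the pores open, were small.

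**Figure D3:**
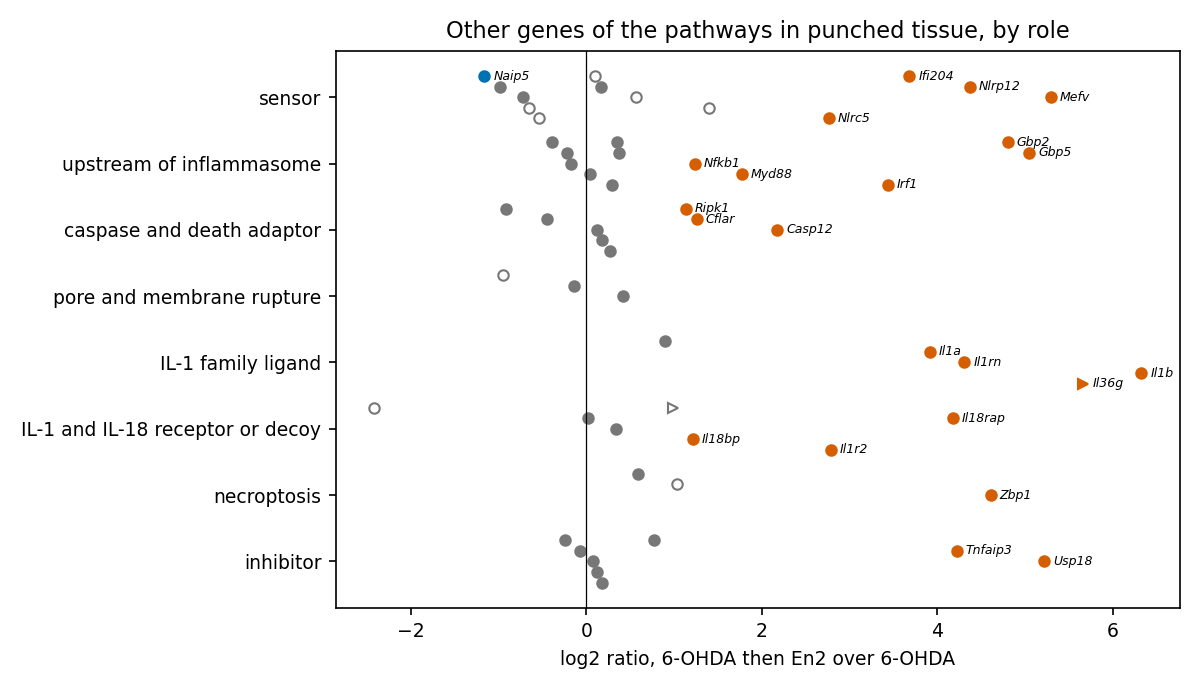
Log2 ratio of 6-OHDA then En2 over 6-OHDA then vehicle for other listed genes with reads, by role, 1 point per gene: orange higher and blue lower by the rule of size, grey not past it, open under 20 reads in both libraries, triangles a lower bound from 0 reads. IL-1 family ligands reach 6.33 for Il1b among genes with reads in both libraries, whereas the measured pore and rupture genes of the list, Gsdme and Ninj1, lie at -0.14 and 0.42.

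Markers of other cells differed between the same punched libraries. Neutrophil markers summed to 9.23 CPM after 6-OHDA then vehicle and to 102 CPM after 6-OHDA then En2. Of the 10, 6 had enough reads and all 6 were higher, 4 of which reached 20 reads only after 6-OHDA then En2. Of all genes with enough reads in this pair, 4.66% were higher and 1.23% lower. S100a8, Ly6g, Retnlg, Camp, Ngp and Ltf were at 0 reads after 6-OHDA then vehicle, and Camp alone was at 0 after 6-OHDA then En2. Homeostatic microglia markers summed to 187 and 99.3 CPM, with 4 of 8 lower (Tmem119, P2ry12, Cx3cr1 and Gpr34). Markers of myeloid cells in general summed to 120 and 101 CPM and those of monocytes and macrophages to 49.5 and 55.8 CPM, with 1 of 9 and 1 of 8 higher (Ptprc and Ccr2). Ccr2, and 1 of the 4 lower microglia markers, reached 20 reads only in the library where they were high. T and NK cell markers summed to 0.753 and 1.63 CPM. The part of these cells in the levels of Nlrp3, Casp1, Casp4, Gsdmd and Mlkl was not tested.

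**Figure D4:**
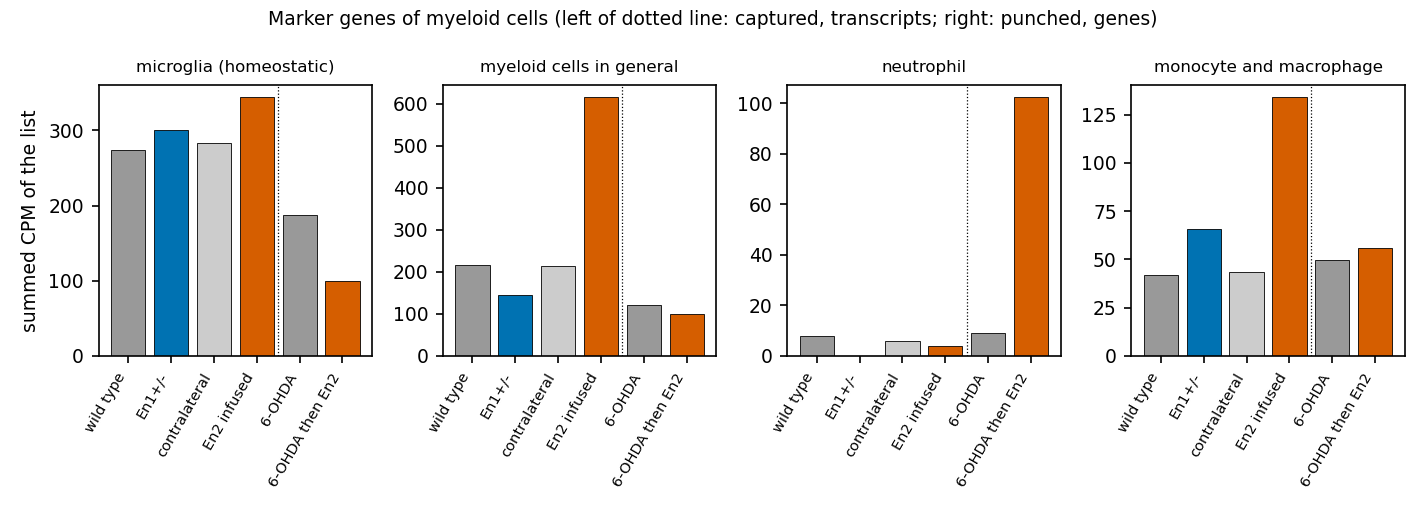
Summed level of 4 marker lists in each of the 6 libraries, in CPM, as bars from 0, 1 value per library (4 captured and 2 punched). Of the punched libraries, neutrophil markers stand at 102 CPM after 6-OHDA then En2 and at 9.23 CPM after 6-OHDA then vehicle. Of the captured libraries, general myeloid markers are highest on the infused side (615.5 CPM). Captured bars count transcripts and punched bars count genes, so the 2 kinds are not ordered against each other.

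In the captured libraries most members were at or near 0 reads. The wild-type library gave no more than 11 reads for any member, and Nlrp3, Nlrp1a, Aim2, Casp4 (most-read transcript) and Gsdmd were at 0 there. A count of 0 allows a level of up to 1.99 CPM (3 reads) in the wild-type library, 0.917 CPM in En1+/- and 1.57 CPM on the contralateral side. Nlrp3 had 0 reads in the wild-type, En1+/- and contralateral libraries and 1 on the infused side. Casp1 had at most 2 reads and Mlkl at most 1 in any captured library. Captured files count transcripts, and each gene is given here by its most-read transcript, so captured and punched values are set side by side and no ratio is formed between them.

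Casp8, Il18 and Pycard had reads in every captured library, and Pycard had at most 11. Il18 had 11 reads in the wild-type library and 90 in the En1+/- library, and 13 (contralateral) and 68 (infused) in the infusion pair. This was 7.28, 27.5, 6.81 and 29.5 CPM, so the En1+/- and infused libraries were high, the other two were low, and their counting intervals did not overlap. The same 2 libraries had the most reads outside mitochondrial and ribosomal RNA genes, and these genes took 79.4% (En1+/-) and 81.7% (infused) of their reads, against 88.9% in wild type and 87.3% on the contralateral side. The part of this difference in the levels of Il18 and Casp8 was not tested. Casp8 had 10, 70, 3 and 132 reads in the same order, or 6.62, 21.4, 1.57 and 57.2 CPM. The infused library was the highest and the contralateral library the lowest for Casp8.

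**Figure D5:**
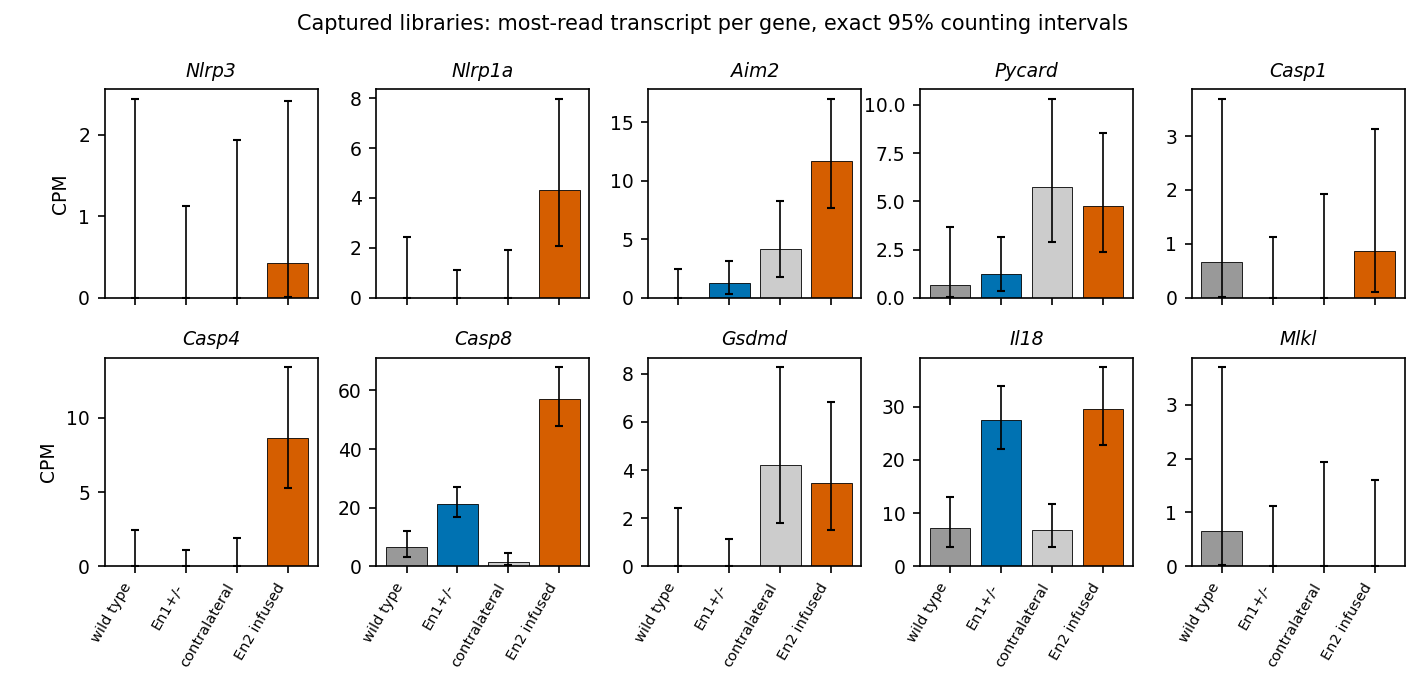
Level of each member in the 4 captured libraries, in CPM over genes outside mitochondrial and ribosomal RNA, as bars from 0 with exact 95% Poisson intervals of 1 library each. Il18 and Casp8 stand highest in the En1+/- (27.5 and 21.4) and infused (29.5 and 57.2) libraries, and Nlrp3, Casp1 and Mlkl stay under 1 CPM in each library.

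The loss of 1 En1 allele was read from En1+/- over wild type. By the rule of size 2 of the 10 members, Casp8 and Il18, were higher and none was lower, and the other 8 had under 20 reads in both libraries. Among all 11500 genes with enough reads in this pair, 20.2% were higher and 14.2% lower, so calls are frequent here. Both members reached 20 reads only in the En1+/- library, which was the deeper of the pair. Casp8 had a log2 ratio of 1.77 (0.84 to 2.93), or 3.41-fold. Il18 had a log2 ratio of 2.00 (1.12 to 3.09), or 3.99-fold. The authors' deposited table of this pair gave an adjusted p of 1 for every listed transcript of the members. Of all 62202 transcripts in the authors' deposited table, 0.0965% were higher and 0.00161% lower at an adjusted p under 0.05.

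Of the 63 other listed genes, 17 had enough reads in that pair. Of these 17, 4 were higher and 2 were lower, beside 20.2% and 14.2% of all genes with enough reads. Calls at this rate are not particular to the list. The minimum was reached only in the library where the gene was high for 2 of the 4 and for both lower genes. When the pair was scaled by library totals instead, the counts were 8 and 1, and the median of all genes moved by 0.78 on the log2 scale. Under that scaling 5139 of all 11500 genes with enough reads were higher and 756 lower, so the tilt was shared by all genes. Casp9, the initiator of mitochondrial apoptosis, had 50 reads in wild type and 707 in En1+/-, a log2 ratio of 2.81 (2.41 to 3.27). Nek7, the kinase that NLRP3 needs for its assembly, had 104 and 554 reads (1.41, 1.11 to 1.73). Txnip, a thioredoxin-binding protein that can bind NLRP3, had 3 and 30 reads (2.19, 0.64 to 4.68), and the inhibitor Tnfaip3 had 3 and 37 (2.49, 0.97 to 4.97). Cflar, the inhibitor of caspase-8, was lower (21 and 5 reads, -2.90), as was the TNF receptor adaptor Tradd (20 and 14 reads, -1.47). Markers of myeloid cells in general summed to 216 CPM in wild type and 146 CPM in En1+/-, and homeostatic microglia markers to 273 and 301 CPM. In the microglia list 2 of 8 were higher (Tmem119 and Olfml3) and 3 were lower (P2ry12, Cx3cr1 and Gpr34). Monocyte and macrophage markers summed to 41.7 and 65.7 CPM, with 1 of 8 higher (Mrc1), and Lyz2 had 0 and 16 reads. Endothelial markers summed to 187 and 267 CPM, with 2 of 6 higher (Pecam1 and Slco1a4). Of these called markers, Olfml3, Gpr34, Mrc1 and Pecam1 reached 20 reads only in the library where they were high. All 10 neutrophil markers were at 0 in En1+/-, and they summed to 7.95 CPM in wild type. For all of these cells, their part in the levels of Casp8 and Il18 was not tested.

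The infusion of En2 was read from the infused side over the contralateral side. Here 4 of the 10 members were higher by the rule of size, Aim2, Casp4, Casp8 and Il18, and none was lower. The others had under 20 reads on both sides and could not be called. Among all 11361 genes with enough reads in this pair, 20.7% were higher and 17.0% lower. All 4 reached 20 reads only on the infused side, so by the minimum itself they could differ in 1 direction only. Casp8 had the highest ratio of the members with reads on both sides, 3 and 132 reads, for a log2 ratio of 5.08 (3.71 to 7.58). Both of its listed transcripts, each protein-coding, carried the same counts. Il18 followed with 13 and 68 reads, for a log2 ratio of 2.17 (1.35 to 3.20) or 4.51-fold. Aim2 had 8 and 27 reads, for a log2 ratio of 1.53 (0.40 to 2.93).

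On its most-read transcript Casp4 had 0 and 20 reads, at least 5.92-fold higher against a floor of 3 reads. This transcript, of 365 bases, is annotated as a retained intron. It was the most read only through its reads on the infused side, so the bound holds for it and not for the gene. Summed over transcripts, the log2 ratio of Casp4 was 2.175, still past the rule. The most-read protein-coding transcript of Casp4 had 1 and 2 reads, with a log2 ratio of 0.61. Nlrp1a had 0 and 10 reads, at least 2.96-fold higher but under the minimum. Pycard had 11 reads on each side (log2 ratio -0.16, -1.52 to 1.17) and Gsdmd 8 on each side (-0.16, -1.78 to 1.44), and both signs turn under scaling by library totals (0.24 and 0.23). Of the members higher in the punches, Nlrp3, Casp1, Gsdmd and Mlkl had under 20 reads on both sides here and could not be called. Casp4 alone could be, on the transcript above, so these calls cannot show whether the 2 pairs differ in their members. In the authors' deposited table of this pair the lowest adjusted p of any member was 0.474, for Casp8. Of all 64068 transcripts in the authors' deposited table, 0.0718% were higher and 0.00312% lower at an adjusted p under 0.05.

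Of the 63 other listed genes, 25 had enough reads in the infusion pair. Of these 25, 10 were higher and 4 were lower, beside 20.7% and 17.0% of all genes with enough reads. Under scaling by library totals the counts were 11 and 0, and the median of all genes moved by 0.42 on the log2 scale. With that scaling 3594 of all 11361 genes with enough reads were higher and 1280 lower. P2rx7, the ATP-gated channel that sets off NLRP3 by potassium efflux, had 6 and 99 reads, for a log2 ratio of 3.77 (2.70 to 5.35). Panx1, a channel that releases ATP, had a log2 ratio of 1.52. Il1b had 0 and 30 reads, at least 8.87-fold higher, and Nlrc3 of the NLR family had the same reads. Naip2, which recognises parts of bacterial secretion systems, had 2 and 22 reads (3.02, 1.26 to 6.42). Ripk1, a kinase upstream of both apoptosis and necroptosis, had a log2 ratio of 1.94. Of the inhibitors Birc2 (2.42) and Serpinb1a (1.44) were higher. Nlrc5 (-1.05), Txnip (-1.19), Nfkb1 (-1.22) and the receptor subunit Il1rap (-1.28) were lower, and none of these 4 was lower under scaling by library totals. Of the calls in this pair, 6 of the 10 higher and 2 of the 4 lower genes reached 20 reads only in the library where they were high.

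General myeloid markers summed to 215 CPM on the contralateral side and to 615.5 CPM on the infused side, and 6 of 9 were higher (8 had enough reads). Monocyte and macrophage markers summed to 43.5 and 134 CPM, with 3 of 8 higher (Ccr2, Ms4a7 and Fn1). Ccr2 and Ms4a7 were at 0 on the contralateral side. Homeostatic microglia markers summed to 283 and 344 CPM, with 1 of 8 higher (Sall1), and neutrophil markers to 5.76 and 3.90 CPM, with S100a8, Ly6g, Retnlg, Cxcr2, Mmp9, Camp, Ngp and Ltf at 0 on both sides. Dopaminergic markers summed to 6859 and 7805 CPM, with 1 of 6 higher (Ddc). Astrocyte markers summed to 6016 and 6728 CPM, and among them Gfap, which reactive astrocytes raise, had 155 and 1092 reads, with a log2 ratio of 2.64 (2.40 to 2.90). Oligodendrocyte markers summed to 17543 and 17924 CPM, with Mag higher (1.13). Endothelial markers summed to 181 and 165 CPM, with Pecam1 (2.15) and Cldn5 (1.44) higher and Cdh5 lower (-1.50). The part of RNA from these cells in the levels of Casp8, Il18, Aim2 and Casp4 was not tested.

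The contralateral side and the wild-type library were both captured from wild-type mice, at 8 and 6 weeks, and each serves as the control of a comparison above. Set against each other as a measure of how far captured controls can differ, they gave no member with 20 reads in either library. Casp8 had 10 reads in wild type and 3 on the contralateral side, a log2 ratio of -1.86 (-4.54 to -0.08). Il18 had 11 and 13 reads (-0.06, -1.33 to 1.24). Among all 10742 genes with enough reads in these controls, 14.1% were higher and 13.4% lower on the contralateral side, so a large share of captured genes passed the rule between controls as well. Of the 63 other listed genes, 19 had enough reads between these controls, 7 were higher on the contralateral side and 2 were lower. For 5 of the 7 and 1 of the 2, 20 reads were reached only in the library where the gene was high. The 4 genes lower on the infused side were among those 7, with log2 ratios of contralateral over wild type of 4.10 (Nlrc5), 2.70 (Txnip), 1.66 (Nfkb1) and 1.08 (Il1rap). Serpinb1a, higher on the infused side, was lower on the contralateral side than in wild type (-2.56). These ratios share the contralateral library with those of the infusion pair. They also share the wild-type library with the En1+/- pair, where Txnip was likewise higher and Tradd lower. Between the controls Tradd had 20 reads in wild type and 2 on the contralateral side (-3.30). Of the other genes called in En1+/-, Cflar went the opposite way between the controls (1.38). Casp9 (0.38) and Nek7 (0.56) did not pass the rule there, and Tnfaip3 was under the minimum. The contralateral control of the infusion pair was thus the lower of the captured controls for Casp8, at 1.57 CPM beside 6.62 CPM.

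Per length, Il18 headed the members in every captured library, at 10.4, 39.2, 9.70 and 42.0 RPKM in wild type, En1+/-, contralateral and infused. It stood apart from the next member in the first 3 of these. On the infused side its counting interval overlapped with that of Casp4 (23.7 RPKM on the short transcript), which in turn overlapped with Casp8 at 22.1 RPKM. Casp8 was second in wild type (2.56 RPKM) and in En1+/- (8.28 RPKM). On the contralateral side Casp8, at 0.608 RPKM, came after Gsdmd, Pycard and Aim2, and none of these neighbours was apart.

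Casp8 and Il18 were the only members with at least 20 reads in 1 library of each of the 3 pairs, so only their pattern could be set beside that of other genes. Over the 3 log2 ratios and 9057 genes, the genes nearest to Casp8 were X99384 (Euclidean distance 0.55), Cd74 (0.60), the invariant chain of MHC class II, and Cdca7l (0.71). The genes nearest to Il18 were Diexf (0.0864), Cyth1 (0.0948) and Cpsf4 (0.224). Each distance rests on 3 points, and it describes these libraries only.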

How the data were processed

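RNA was sequenced from 6 libraries, 1 per group, in 3 pairs. Per the submitters' processing notes the build was mm10 and the tools included DESeq 1.8.3, HTSeq and Bowtie, with no roles stated, while a header of the punched comparison table names mm9. The authors deposited read counts per transcript for the captured samples (95533 transcripts, 9402 of them without a gene ID and left out) and read counts per gene for the punches, where 4 shifted counts (1 and 3 per file) were moved back. The authors' deposited tables give log2 fold changes (captured), a linear fold change or ratio (punched) and p-values; their 6 columns of means per library were not used. In the captured libraries 79.4% to 88.9% of reads lay on mitochondrial and ribosomal RNA genes, which CPM leaves out; in the punched files 42.6% and 39.6% of entries were unaligned, and a further 16.4% and 16.9% fell outside every feature.

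Each captured gene is its most-read transcript. Pairs were scaled by the median of ratios, 0.5 was added, and the log2 ratio was taken with an exact 95% Clopper-Pearson counting interval; levels have exact Poisson intervals. The rule of size asks for 20 reads in 1 library, a log2 ratio of 1 in size and an interval without 0; with 0 reads, 3 reads are the floor. No difference was tested for significance. The steps were tested on simulated data. Alternatives were library totals, TMM (edgeR 4.0.16, R 4.3.3), other minimums, another added count and other transcript choices. All members were named, and of each role list the genes past the rule (beyond 4, the 2 highest and the 2 lowest), or a gene that the text gives as not past it, chosen after its value was seen. Single marker genes past the rule were also named after their values were seen. Members and lists were chosen with earlier results of these data known. Python 3.11.15 with scipy 1.17.1 was used. The values of 1 listed gene are not reported here and are not drawn.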

Additional observations from a re-analysis of the deposited data

How the results depend on the processing

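In the punched pair 5 members were past the rule under library totals, TMM, no minimum and 1 added, and 4 under a minimum of 100 reads. With that minimum the captured counts fell most, because few members have 100 reads: 0 members in place of 2 and 2 pathway genes in place of 6 for En1+/-, and 1 member in place of 4 and 3 pathway genes in place of 14 for the infusion. Without a minimum, 12 pathway genes passed for En1+/-, and 4 members, in place of 0, passed between the contralateral and wild-type controls; summing over transcripts gave 2 members there. Under the alternatives 43 counts of genes stayed within 1.5 times the reported count and 7 did not. Of the member ratios, 169 stayed within their counting interval and 1 did not. That was Casp4 on the infused side (0.61 with its protein-coding transcript, an alternative chosen after seeing the data). Another minimum leaves every ratio as it was, and some intervals had no end on 1 side. A part of the 169 therefore could not have moved out, and the tally is no measure of robustness. No called ratio changed sign; the uncalled ratios of Pycard and Gsdmd on the infused side turned from -0.16 each to 0.24 and 0.23 under library totals. No paired analysis was possible because each group has 1 library. Captured depth outside mitochondrial and ribosomal RNA limits these genes: a count of 0 allows 0.917 to 1.99 CPM.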
